A study of Saccharomyces cerevisiae with 6 samples.

Results

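The cell wall sensors of budding yeast and the Rho1-Pkc1 relay behind them were followed after YPI1 was shut off. The 10 genes were taken by name from 6212 arrayed identifiers. They are WSC1 (YOR008C, listed as SLG1 in the RefSeq annotation), WSC2 (YNL283C), WSC3 (YOL105C), WSC4 (YHL028W), MID2 (YLR332W), MTL1 (YGR023W), ROM1 (YGR070W), ROM2 (YLR371W), RHO1 (YPR165W) and PKC1 (YBL105C). The treated cells were strain mmr09-4, of the CML476 background, in YPD (a rich glucose medium) with 100 µg/ml doxycycline in ethanol and water for 2, 4 or 6 h. The untreated cells were the same strain, given the solvent alone for the same time. All cells, treated and untreated, carried a kanMX4-tetO7 cassette directly before the YPI1 coding region, a promoter that doxycycline silences. YPI1 encodes a regulator of the type 1 phosphatase Glc7, and the series asks about its part in mitosis. No strain with the native YPI1 promoter was analysed here, and the ratios therefore hold whatever doxycycline does by itself.

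The cell wall integrity pathway lets yeast reinforce its wall during growth and stress. Long, serine- and threonine-rich sensors of the Wsc and Mid2 families span the plasma membrane and pass wall strain to the exchange factors Rom1 and Rom2. These load the small GTPase Rho1 with GTP, and Rho1 activates Pkc1, the only protein kinase C of this yeast. Pkc1 starts a MAP kinase cascade through Bck1, Mkk1 and Mkk2 to Slt2, which turns on the transcription factor Rlm1 and, with Swi4 and Swi6, wall and cell-cycle genes. Rho1 is also the regulatory subunit of the glucan synthases Fks1 and Gsc2. In yeast, Glc7 itself has been tied by genetics to cell wall integrity.

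Each time had 1 pair of RNA samples on 2 dye-swapped 2-colour arrays, and the deposited values are log2 ratios of treated over untreated cells. Values at a time are the mean ± SD of the 2 arrays (n = 2 technical arrays), so the SD holds no spread between cultures. The arrays held values for 4250 to 4804 genes, and their medians ran from -0.10 to 0.02. Of the members, 3 had a value on all 6 arrays, 3 on 5 arrays, 2 on 4 arrays and 2 on 1 array. YPI1 fell on every array, with log2 ratios between -4.06, on array 1 of 2 h, and -6.44, on array 1 of 6 h. The correlation between dye-swapped arrays, computed across genes that are no independent replicates, was -0.40 for 2 h, -0.17 for 4 h and 0.87 for 6 h. A member's sign at 2 or 4 h therefore needs both of its arrays. Gene means were spread more widely at 6 h (SD 0.756 between genes, against 0.165 at 2 h and 0.160 at 4 h). The share of all genes whose 6 h arrays lay apart from the earlier ones was not counted. The 6 h mean also went with gene length in the annotation (Spearman correlation 0.63 over 3921 genes, against 0.15 at 2 h and -0.29 at 4 h). Genes of near-equal length also differed between chromosomes, since those matched to WSC1 on XV lay at -0.69 and those matched to MID2 on XII at -0.22. For that reason the 6 h values are given a second time relative to matched genes, that is, minus the median of the 20 genes closest in length on that chromosome, an alternative chosen with earlier results known. In RNA of whole cultures, a change in the share of cells that express a gene and a change per cell cannot be told apart.

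The largest ratios among the members came at 6 h and lay in the sensors. WSC4, WSC1 and MID2 had log2 ratios of 1.73, 0.81 and 0.84, while RHO1 lay at -0.38. At 2 and 4 h no member reached a 2-fold difference. With length and chromosome taken into account through matched genes, the sensors had 1.498 for WSC1, 1.06 for MID2 and 0.50 for WSC4. With only each array's curve on gene length removed WSC4 stayed first, at 1.16, ahead of MID2 at 0.87 and WSC1 at 0.835. Of the members, WSC4, MID2 and RHO1 alone had a value on all 6 arrays and entered the limma tests over the 3 times. WSC1 did not enter them. None of these 3 members passed with all 6 arrays in the fit.

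**Figure D1:**
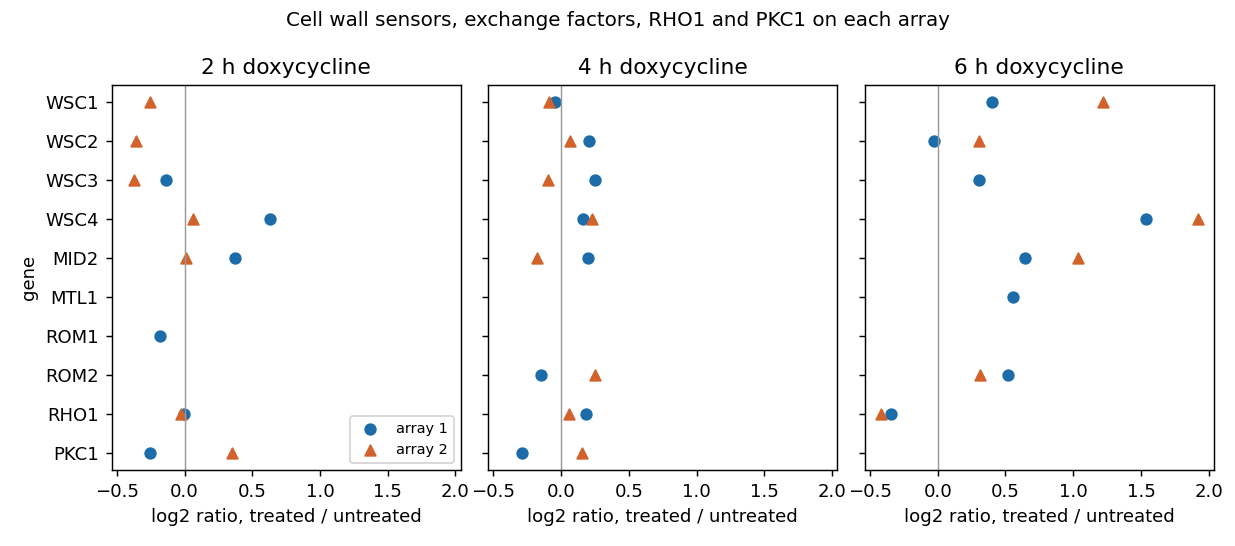
Log2 ratio of treated over untreated cells for each of the 10 genes (rows), at 2, 4 and 6 h (panels), with a circle for array 1 and a triangle for array 2 of the same RNA pair. An absent symbol is a spot without a value. WSC4 lies at 1.54 and 1.92 at 6 h, RHO1 at -0.34 and -0.42, and the symbols at 2 and 4 h stay between -0.37 and 0.63.

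WSC1 encodes the main sensor of the Wsc family, whose members carry a cysteine-rich domain outside the cell. It had no value on array 1 of 2 h and -0.26 on array 2. At 4 h it had -0.05 and -0.09 (mean -0.07 ± 0.03). At 6 h it had 0.40 and 1.22 (mean 0.81 ± 0.58). Both 6 h arrays stood above both 4 h arrays, with a turn of sign that 23.7% of 4021 genes had in either direction. The 6 h arrays differed widely from each other. Its 20 matched genes, of 1092 to 1182 bp on chromosome XV, had 6 h medians of -0.72 and -0.66, with an SD of 0.39 and 0.52 between genes. Relative to them WSC1, of 1137 bp, was at 1.12 and 1.88 (mean 1.498 ± 0.54), and the mean was 1.55 with 10 and 1.44 with 40 matched genes.

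WSC2 and WSC3 are close relatives of each other and share the sensor role with Wsc1. WSC2 had -0.36 on the 1 array of 2 h with a value, then 0.20 and 0.06 at 4 h. The 6 h arrays gave -0.03 and 0.30. Its 6 h mean of 0.14 ± 0.23 was smaller than the difference between its arrays, and the mean was 0.33 ± 0.11 relative to matched genes but -0.32 ± 0.17 with the length curve removed. WSC3 had -0.14 and -0.37 at 2 h (mean -0.26 ± 0.16), 0.25 and -0.10 at 4 h, and 0.30 on the 1 array of 6 h with a value. WSC3 was the 1 sensor below 0 on both arrays of 2 h, and its matched genes had 0.46 on that single 6 h array. Neither gene approached 2-fold at any time.

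WSC4 had the highest deposited ratio of the members. Its product is related to the sensors, and has been placed in the endoplasmic reticulum, with a part in protein translocation. At 2 h WSC4 had 0.63 and 0.06, at 4 h 0.16 and 0.22, and at 6 h 1.54 and 1.92. All 6 arrays were above 0, which held for 1% of 3391 genes. The 6 h arrays stood apart from the other 4. That separation was not counted over all genes, whose means were spread more widely at 6 h (SD 0.756) than at 2 h (0.165) or 4 h (0.160). The means were 0.35 ± 0.40, 0.19 ± 0.04 and 1.73 ± 0.27, the last a 3.32-fold ratio. Its matched genes, of 1650 to 1920 bp on chromosome VIII, were themselves at 0.97 and 1.495 at 6 h. Their SD between genes was 0.44 and 0.62. Subtraction of their medians left 0.50 ± 0.10 for WSC4, or 0.49 with 10 and 0.75 with 40 matched genes. On the same basis WSC4 was at 0.17 ± 0.11 at 2 h and 0.31 ± 0.11 at 4 h.

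MID2 encodes a highly O-mannosylated sensor that works beside Wsc1 and is best known from the response to mating pheromone. At 2 h MID2 had 0.37 and 0.01, at 4 h 0.20 and -0.18, and at 6 h 0.64 and 1.03 (6 h mean 0.84 ± 0.28). Both 6 h arrays were higher than the other 4. The share of genes with such a separation was not counted, and the means of all genes were spread more widely at 6 h. Its matched genes, of 1089 to 1164 bp on chromosome XII, had 6 h medians of -0.15 and -0.30. Their SD between genes was 0.66 and 0.65. Relative to their medians MID2 was at 0.79 and 1.34 (mean 1.06 ± 0.39). That mean was under 2-fold with 10 matched genes (0.98) and with 40 (0.84). JIP3 (YLR331C), an open reading frame on the opposite strand that overlaps MID2, had -1.15 and -1.05 at 6 h, so the spots of this overlapping pair differed in sign there. Against its own matched genes JIP3 was at -0.22 ± 0.01. Whether the arrayed spots tell the strands apart is not given in the sources used here. MTL1, the relative of MID2, had 1 value in all, 0.56 on array 1 of 6 h, where its matched genes had 0.38.

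The exchange factors were thinly measured. ROM1 had 1 value, -0.18 on array 1 of 2 h, against -0.49 for its matched genes. ROM2, the more prominent exchange factor of the pair, had no value at 2 h. It had -0.15 and 0.25 at 4 h, then 0.52 and 0.31 at 6 h. Its arrays disagreed in sign at 4 h and were both above 0 at 6 h (mean 0.42 ± 0.15). The 6 h mean of ROM2 relative to matched genes of 3054 to 4986 bp was 0.04 ± 0.16, which is within the difference between its arrays.

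At 2 h RHO1 had -0.01 and -0.03, and at 4 h 0.18 and 0.06. Its 6 h values were -0.34 and -0.42. It was the 1 member below 0 on both arrays of 6 h, with a mean of -0.38 ± 0.06. RHO1 is also the shortest member, at 630 bp, and its matched genes had -0.47 and -0.51. Relative to them RHO1 turned to 0.11 ± 0.03, and it lay at -0.004 with 10 and 0.15 with 40 matched genes. PKC1 had -0.25 and 0.35 at 2 h and -0.29 and 0.15 at 4 h, lower on array 1 and higher on array 2 each time. It had no value at 6 h. Spots of longer genes were also absent more often on array 2 of 6 h, where 53% of genes over 2000 bp had a value, against 70.2 to 72.4% on the other 5 arrays. ROM1, ROM2 and PKC1 are the members of that length. ROM2 had a value on both 6 h arrays, and ROM1 and PKC1 had none on either. The members with a 6 h value on array 1 alone were WSC3 and MTL1, of 1671 and 1656 bp. Why values were missing was not tested.

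**Figure D2:**
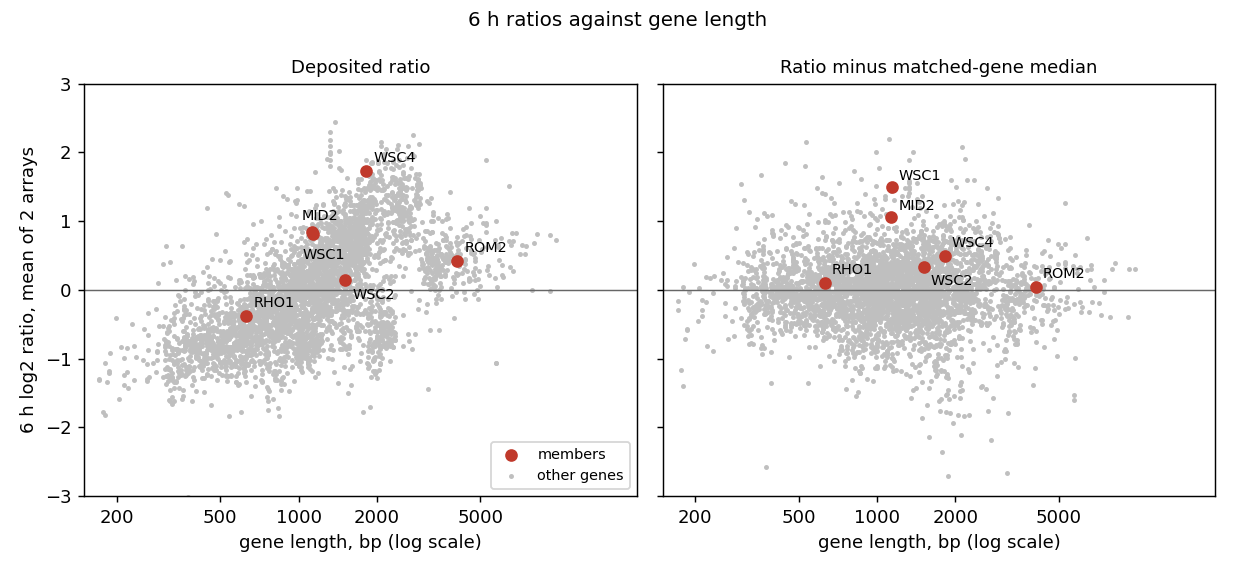
Mean 6 h log2 ratio of the 2 arrays against gene length on a log axis, as deposited (left) and minus the median of matched genes (right), with the 6 members measured on both arrays in red and other genes in grey. In the left panel WSC4 (1.73) lies within the high cloud of genes of its length. In the right panel WSC1 (1.498) and MID2 (1.06) lie highest of the members and RHO1 (0.11) and ROM2 (0.04) lie near 0. The left panel leaves out 2 genes below its range, YPI1 among them, and the right panel leaves out YPI1. Genes without a length in the annotation, or beyond the ends of the length axis, are not drawn either.

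The number of members past a limit was read against the share of all genes. A gene was counted if the mean of its 2 arrays was at least 1 in size on the log2 scale, a 2-fold ratio, with 1 sign on both arrays. None of 5 measured members passed at 2 h and none of 8 at 4 h, where 0.0486% of 4119 and 0.064% of 4691 genes did. At 6 h, 1 of 6 passed, WSC4, against 9.81% of 4160 genes in that direction and 17.9% in either. The genes past the limit at 6 h were 408 higher and 336 lower, and removal of each array's curve on gene length left 126 higher and 240 lower, where WSC4 had 1.16 and was again the 1 member counted. With the arrays scaled to one spread no member passed, WSC4 included, and 4 of 4160 genes did. After subtraction of matched genes 2 of 6 passed, WSC1 and MID2, against 2.7% of 3921 genes in that direction. On array 2 of 6 h alone WSC1, WSC4 and MID2 were past the limit, where 518 of 4160 genes were in that direction. On array 1 alone WSC4 was past it, where 362 of 4160 genes were.

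Signs were counted next. At 6 h, 4 of the 6 measured members were above 0 on both arrays and 1 below, where 39.4% and 48.3% of all genes were. With matched genes subtracted 5 of 6 were above and none below, where 36.3% and 38% of genes were. With the length curve removed 4 of 6 were above and 2 below, WSC2 and ROM2, where 37.9% and 39.4% of genes were. At 4 h, 3 of 8 members were above 0 on both arrays (18.1% of genes) and 1 below (17.5%), and at 2 h, 2 of 5 were above (16.8%) and 2 below (16.3%). The members had a median of 0.05 for 2 h, 0.06 for 4 h and 0.61 for 6 h, against -0.01, 0.01 and -0.10 for all genes. The 6 h member median was 0.41 relative to matched genes.

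A limma fit on the 3 time values (n = 3 RNA pairs) tested their mean against 0 and a slope through 0 on hours for the 3391 genes with a value on all 6 arrays. WSC4, MID2 and RHO1 were among them. Their means were 0.76 (SE 0.32, limma adjusted p = 0.806), 0.35 (SE 0.22, limma adjusted p = 0.806) and -0.09 (SE 0.19, limma adjusted p = 0.861). None passed, and 0.0295% of genes did, which was YPI1 alone (-5.39). An unadjusted p below 0.05 was reached by 0.295% of genes and by no member. The change over time counts as error in this test of the mean.

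The slope of WSC4 was 0.21 per hour (SE 0.05, limma adjusted p = 0.306, unadjusted p = 0.00381), with ratios above 0 on 6 of 6 arrays. That of MID2 was 0.10 per hour (SE 0.04, limma adjusted p = 0.306), with 5 of 6 above 0, and that of RHO1 -0.03 (SE 0.04, limma adjusted p = 0.562). None passed where 0.059% of genes did. An unadjusted p below 0.05, which WSC4 and MID2 had, was reached by 14.3% of genes. Relative to matched genes the slopes of WSC4 and MID2 were 0.08 and 0.12 (limma adjusted p = 0.35 for each). With the length curve removed they were 0.15 and 0.10 (limma adjusted p = 0.319 for each). The WSC4 slope did pass with array 1 of 2 h left out (limma adjusted p = 0.0309), with array 2 of 2 h left out (limma adjusted p = 0.00534) and with 4 h left out (limma adjusted p = 2.38e-11), and the MID2 slope passed with 4 h left out (limma adjusted p = 0.00151). Of the 3391 genes, 47 passed without array 1 of 2 h, 108 without array 2 of 2 h and 1745 without 4 h, so the WSC4 and MID2 calls stood among others. The fit without 4 h rests on only 2 time values. With a looser filter of 1 array at each time, which admitted WSC1, WSC2 and WSC3, their means were 0.16, -0.03 and 0.04 (limma adjusted p = 0.833 to 0.958). Their slopes were 0.07, 0.01 and 0.03 per hour (limma adjusted p = 0.359 to 0.866).

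The genes whose ratios ran closest to those of WSC4 over the 6 arrays were HXK1, a hexokinase, AIM3, a protein of cortical actin patches, RTS1, a regulatory subunit of protein phosphatase 2A, PRB1, a vacuolar protease, and GLC3, the glycogen branching enzyme. Their root mean square difference from WSC4 was 0.10 for HXK1 and up to 0.19 for GLC3, out of 3391 genes compared. At 6 h they ran from 1.28 to 1.67 on array 1 and from 1.74 to 2.20 on array 2. They were 1458 to 2844 bp long, against 1818 bp for WSC4, and none lay on its chromosome.

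**Figure D3:**
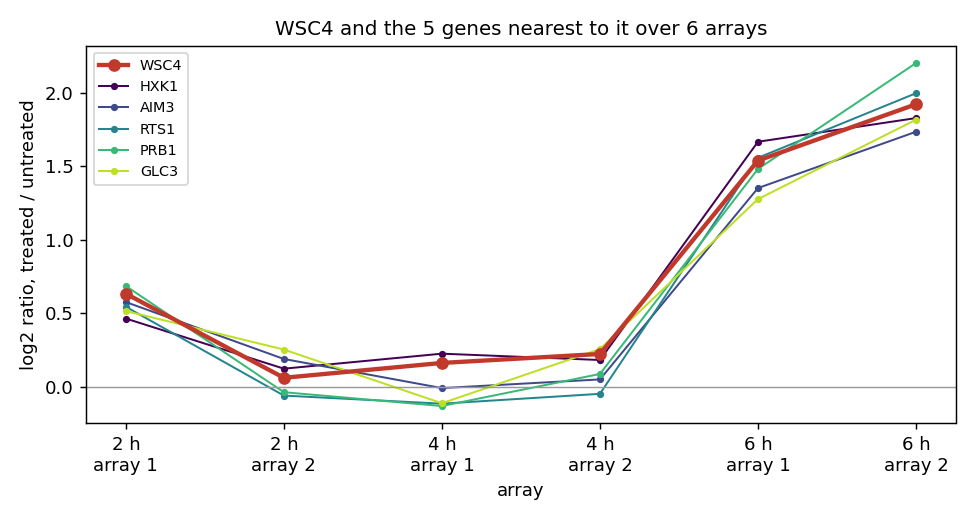
Log2 ratio of treated over untreated cells on each of the 6 arrays for WSC4 (thick red line) and the 5 genes with the smallest root mean square difference from it. Lines join the arrays of a gene only to guide the eye. All 6 genes lie between -0.13 and 0.69 at 2 and 4 h and between 1.28 and 2.20 at 6 h.

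Downstream of Pkc1, the MAP kinase module was divided at 6 h. RLM1, the transcription factor that Slt2 activates, had 1.30 and 1.92 (mean 1.61 ± 0.43). SLT2, the MAP kinase, had 0.60 and 0.36. MKK1 had -0.87 and -0.86, and its fellow kinase MKK2 -0.11 and -0.27. Of these 4 measured genes 2 were above 0 and 2 below on both arrays, with a median of 0.14, and 1 passed 2-fold higher, RLM1. Of all genes 39.4% were above, 48.3% below and 9.81% past 2-fold higher. After the same subtraction of matched genes RLM1 had 0.56, SLT2 0.09, MKK2 -0.06 and MKK1 -1.04, so there MKK1 was the 1 past 2-fold, on the low side. Of all genes 2.91% were past 2-fold lower on that basis. SWI6, a subunit of the SBF and MBF factors, had 1.07 and SWI4, its partner in SBF, 0.26 on the single 6 h array with a value, where they were at 1.28 and -0.45 relative to matched genes. BCK1, the first kinase of the cascade, had 0.17 on 1 array of 2 h and no other. Of the MAP kinase phosphatases, which switch Slt2 off, MSG5 alone had a pair of values at 6 h, -0.28 and -0.09, or 0.02 and 0.08 relative to matched genes.

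The other regulators of Rho1 were divided. Of 4 measured regulators 2 were above and 2 below 0 on both 6 h arrays, where 39.4% and 48.3% of all genes were. LRG1, a GTPase-activating protein for Rho1, was at 0.86 ± 0.22 and BEM2, another such protein, at 0.34 ± 0.26. RDI1 was at -0.89 ± 0.15 and ZEO1, a partner of Mid2, at -0.85 ± 0.24. The genes above 0 are 3054 and 6504 bp long and those below 0 are 609 and 342 bp long. Against matched genes LRG1 was at 0.33, BEM2 at -0.32, RDI1 at -0.22 and ZEO1 at 0.03.

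Of the effectors of Rho1, 3 had a pair of values at 6 h. SKN7, a transcription factor that binds Rho1, had 1.38 and 1.94 (mean 1.66 ± 0.40). GSC2, the stress-induced glucan synthase, had -0.63 and -0.42 at 2 h and 0.88 and 0.58 at 6 h. Its sign turned on both arrays between these times, as it did for 10.6% of 3453 genes. BNI1, a formin that builds actin cables, had 0.97 and 0.34. All 3 of them were above 0 on both 6 h arrays, also relative to matched genes, where their means were 0.41 for SKN7, 0.36 for GSC2 and 0.31 for BNI1. Of all genes 39.4% were above 0 on both arrays as deposited and 36.3% relative to matched genes. FKS1, the main glucan synthase, had no 6 h value. The upstream kinases TOR2 (0.52 ± 0.34), PKH2 (0.37 ± 0.15) and STT4 (0.18 ± 0.38) had -0.04, -0.03 and -0.21 relative to matched genes.

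Of 12 genes known as targets of Slt2 and Rlm1, most of them wall proteins, 9 had a pair of values at 6 h. Of these 6 were above 0 on both arrays and 2 below, and the median was 0.67, with array medians of 0.25 and 1.07. Those below 0 were CWP1 (-0.675 ± 0.13) and PRM5 (-0.29 ± 0.18). CRH1, a chitin-glucan crosslinker (1.32 ± 0.57), HSP150, a wall protein also called Pir2 (1.24 ± 0.45), and PIR3, of the same family (1.07 ± 0.23), passed 2-fold higher and none passed lower. Of all genes 39.4% were above 0 on both arrays, 48.3% below and 9.81% past 2-fold higher. The median relative to matched genes was again 0.67, 7 of 9 were above 0 on both arrays and 1 below, and 3 passed 2-fold. These were PIR3 (1.05) and, named after their values were seen, CIS3 (1.27) and SED1 (1.78), both wall proteins. The 1 gene below was PRM5 (-0.18), and CWP1 was at 0.06. The shares of all genes on that basis were 36.3% above, 38% below and 2.7% past 2-fold higher. At 2 and 4 h the list medians were 0.02 and 0.02, with array medians of opposite sign.

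Over all 39 of these pathway genes, 21 were tested over the times and none passed the limma test of the mean or of the slope (lowest limma adjusted p = 0.306, for the slope). At an unadjusted p below 0.05 none had passed for the mean, and 3 higher and 1 lower for the slope. At 6 h 5 of 24 measured genes passed 2-fold higher and none lower, against 9.81% and 8.08% of all genes, and relative to matched genes 3 and 1, against 2.7% and 2.91%.

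**Figure D4:**
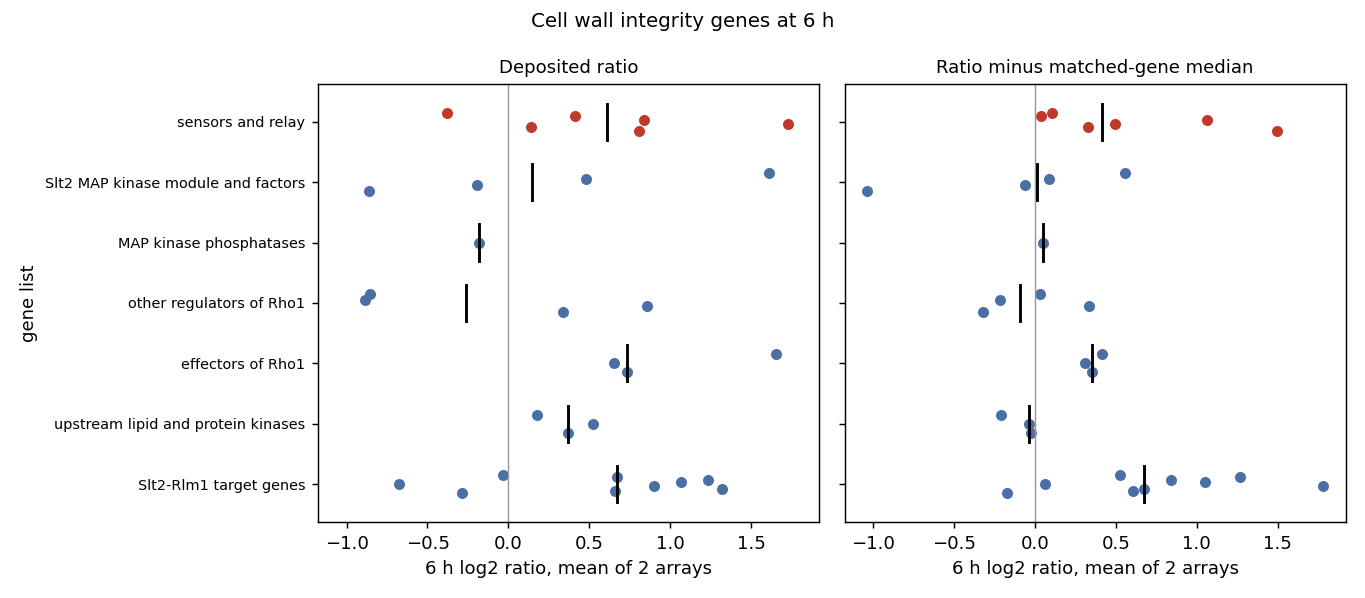
Mean 6 h log2 ratio of the 2 arrays for the sensors and relay (red, top row) and for each list of other pathway genes (blue), as deposited (left) and minus the median of matched genes (right); each point is a gene and each black bar a median. The members have a median of 0.61 as deposited and 0.41 relative to matched genes, and the Slt2-Rlm1 targets have 0.67 in both panels.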

How the data were processed

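Per the labels' protocols, dye-labelled cDNA was primed with oligo(dT) on total RNA, and spots under 120 µm, or under 100 units of Cy3 and Cy5, were dropped, and these are empty cells here. The deposited values were taken as log2 ratios from their range, since the base, the normalization and the averaging of spots are not given in the sources used here. Their direction was taken from the labels' first channel and from YPI1. One 2 h array, labelled Cy3 in both channels, was treated as the swapped one. Spot brightness was not analysed here, so the depth behind a value is unknown, and precision is limited by how few arrays there are.

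In total 5662 of 6212 identifiers matched the RefSeq R64 annotation by systematic name, which gave gene names, lengths and chromosomes. Its coordinates were used only to find reading frames that overlap a member. Both arrays of a time hold the same RNA pair and were averaged before any fit. No p was computed for 1 time. Over the times lmFit and eBayes of limma 3.58.1 (R 4.3.3), two-sided, were used with Benjamini-Hochberg adjustment at 0.05 over all tested genes, after a check on simulated data. The labels do not say that the RNA pairs came from separate cultures, so p-values measure only the spread between these samples. Alternatives were centring, scaling, a lowess curve on log2 gene length (span 0.3, 3 robust steps), matched genes, turned signs, other filters and limits, arrays as units and left-out arrays or times.

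The members, pathway lists and tests were chosen with earlier results of these data known. The 10 members, YPI1 and the MAP kinase module were named whatever their values, and up to 3 genes of each other list by the size of their 6 h mean. BEM2, FKS1, CIS3, SED1, CWP1 and PRM5 were added afterwards. One further list is not reported here. The 5 genes nearest to WSC4 were named by root mean square difference.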

Additional observations from a re-analysis of the deposited data

Results flagged for a closer look

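RHO1 was opposite in sign on both arrays between times, with means of -0.017 at 2 h, 0.12 at 4 h and -0.38 at 6 h. WSC1 likewise had -0.068 at 4 h and 0.81 at 6 h. These differences between times were not tested, since each time holds 1 RNA pair. Among all genes measured at both times, 8.09% turned sign in this way between 2 and 4 h and 23.7% between 4 and 6 h. Relative to matched genes RHO1 was at 0.11 at 6 h, on the same side as its 0.03 at 4 h. WSC1 on that basis had -0.26 and 0.05 on its 4 h arrays, which differ in sign.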

How the results depend on the processing

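The limma test of the mean called 1 gene. It called 8 with arrays scaled, 2 with the length curve removed, 2 with 2 h or 4 h left out, 11 without 6 h, 0 relative to matched genes, 0 with the signs of the Cy3 arrays of 2 and 4 h turned, and 1 to 2 with any single array left out. With 6 arrays as units it called 2, also with the dye as a term and with the replicate number as a block. The slope test called 2 genes, and 0 with the length curve removed, relative to matched genes or with signs turned, 1745 without 4 h, 10 without 6 h, and 0 to 108 with single arrays left out. With the replicate block it called 2. The replicate numbers do not pair the arrays: their deviations correlated at 0.57 between 2 and 4 h, -0.71 between 2 and 6 h and -0.55 between 4 and 6 h. With 2 arrays a time, both numbers give the same correlations by construction. Array 1 held the treated RNA in Cy5 at 2 and 4 h and in Cy3 at 6 h, so the signs matched that dye. The cause was not tested. RHO1, which passed no test, turned sign in the mean to 0.079 with the length curve removed, 0.024 relative to matched genes and 0.052 without 6 h, and in the slope to 0.022, 0.011 and 0.022. WSC4 and MID2 kept their direction in both tests under all alternatives run. Nearly all their arrays were above 0, so leaving out arrays or times could hardly turn that direction. Relative to matched genes the WSC4 mean was 0.33 and its slope 0.08, against 0.76 and 0.21 as deposited. For MID2 they were 0.41 and 0.12, against 0.35 and 0.10.

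The 2-fold count of 2 genes at 2 h was 6 at 1.5-fold, 12 with 1 array sufficing, and 12 to 24 on single arrays. The 3 genes of 4 h were 9 with arrays scaled, 1 with signs turned, 9 at 1.5-fold and 4 on either array. The 744 genes of 6 h were 4 with arrays scaled, 366 with the length curve removed, 220 relative to matched genes, 2045 at 1.5-fold, and 795 to 810 on single arrays. The member median at 2 h, 0.05, was 0.069 with arrays scaled, 0.083 with the length curve removed, 0.088 relative to matched genes, and -0.007 to 0.012 on single arrays. At 4 h it was 0.06 to 0.17 on single arrays. At 6 h it was 0.27 with arrays scaled, 0.41 relative to matched genes, and 0.46 to 0.67 on single arrays. Scaling sets the wide 6 h arrays to the spread of the others by construction. The cause of the other shifts was not tested. With 1 RNA pair a time and 3 members on all 6 arrays, differences between cultures could not be seen.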
